A study of Mus musculus with 6 samples.

Results

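The chemokine family was described in sorted endothelial cells of the mouse, from normal brain and from glioma. Members were all rows whose gene symbol names a chemokine ligand (Ccl, Cxcl, Cx3cl1 or Xcl1), a chemokine receptor (Ccr, Cxcr, Cx3cr1 or Xcr1) or an atypical chemokine receptor (Ackr1 to Ackr4), which gave 61 of the 24421 genes in the files, 39 ligands and 22 receptors. The rule used names and no measured value, though it was set with earlier results of these data known. Chemokines are small secreted proteins that guide leukocytes along gradients and are named after the spacing of their conserved cysteines (CC, CXC, CX3C and XC). They act on G protein-coupled receptors, while atypical receptors bind chemokines without G protein signalling and scavenge or transport them. On the wall of a blood vessel, chemokines held by heparan sulfate cooperate with adhesion molecules to arrest passing leukocytes, and brain endothelium is known as a source of Cxcl12, which keeps leukocytes in the perivascular space.

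The normal group held 3 libraries of sorted endothelial cells (EC) from normal brain. The glioma group held 3 libraries of sorted EC from tumors, 3 weeks after orthotopic injection, that is, implantation into the brain. Libraries carry the replicate numbers of the labels. Groups were taken from the labels, although the column heading of glioma library 3 reads control and does not name glioma. The mice of both groups were C57BL/6, and the series' design text says that GL26l glioma cells were injected and that the RNA sets were independent. Age, sex, any pooling of animals and the surface markers of the sort are not stated in the sources used here. No label ties a library to an animal of its own, so p-values speak only of the spread between these libraries, part of which can be technical.

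Values are log2(x + 1) of the authors' normalized levels, made by 3′ end sequencing, in which a transcript's length does not set its level. The endothelial label was checked with 15 marker genes, and all 15 were above 0 in each library. Their summed back-transformed level was 412900, 560700 and 561600 in the normal and 222800, 406900 and 286200 in the glioma libraries, lower in each glioma library than in any normal one. The sum leans on the highest marker, Egfl7 (17.31, 17.62 and 17.62 against 15.83, 17.07 and 15.56). Egfl7 was the only 1 of the 15 wholly below normal, where 6.37% of all genes were. Of the 15 differences, 10 were below 0 and 5 above, with a median of -0.24. The part of these markers in the chemokine values was not tested. The libraries were unequal: 7446, 11853 and 13072 genes were above 0 in normal libraries 1, 2 and 3, and 13108, 10954 and 10013 in glioma libraries 1, 2 and 3. The lowest value above 0 was 7.43, 2.84 and 0.22 in the normal and 0.42, 3.82 and 5.22 in the glioma libraries, so low members cannot be seen in normal library 1 and a gene at 0 lies far below the next value there. A gene at 0 is therefore given as listed at 0, with no mean printed for its group. The differences between groups do take each 0 as a value. For a gene with a 0 they are therefore not measured fold changes. Across the 5880 genes above 0 everywhere, Pearson's r was 0.97 between normal libraries 2 and 3 but 0.58 and 0.60 between them and normal library 1. Normal library 1 had r of 0.66, 0.67 and 0.56 with glioma libraries 1, 2 and 3. Glioma library 2 had 0.78 and 0.82 with normal libraries 2 and 3, but 0.67 and 0.75 with glioma libraries 1 and 3. Glioma libraries 1 and 3 had 0.54. The libraries thus did not sort wholly by group. Each r is across genes, which are not independent replicates. Date-like numbers in the column names are shared by normal libraries 2 and 3 and by glioma libraries 2 and 3 but not across the groups, so a batch and the groups cannot be told apart.

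Of the 61 members, 20 (32.8%) were listed at 0 in all 6 libraries, against 36% of all genes in the files. A further 18 were above 0 in 1 or 2 libraries, and 23 in at least 3, of which 15 were ligands and 8 receptors. The number above 0 was 16, 21 and 25 in normal libraries 1, 2 and 3, and 29, 20 and 29 in glioma libraries 1, 2 and 3. Only 8 members were above 0 in every library, namely the ligands Cxcl12, Cx3cl1, Cxcl1, Ccl27a and Ccl27b and the receptors Ackr3, Ackr1 and Cxcr5. Another 13 members (21.3%) were above 0 in at least 1 glioma library and listed at 0 in all normal libraries, as were 7.34% of all genes in the files. These were 12 of the 39 ligands (30.8%) and 1 of the 22 receptors (4.55%). The receptor was Ccr2, at 0.42 in glioma library 1, the lowest value above 0 there. Of these 13, 8 were seen in glioma library 1, 2 in glioma library 2 and 8 in glioma library 3. The reverse held for 4 members, Ccl28, Cxcl17, Ccr9 and Ccr10 (4.68% of all genes). In bulk RNA, fewer cells that carry a transcript and less of it per cell cannot be told apart.

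**Figure D1:**
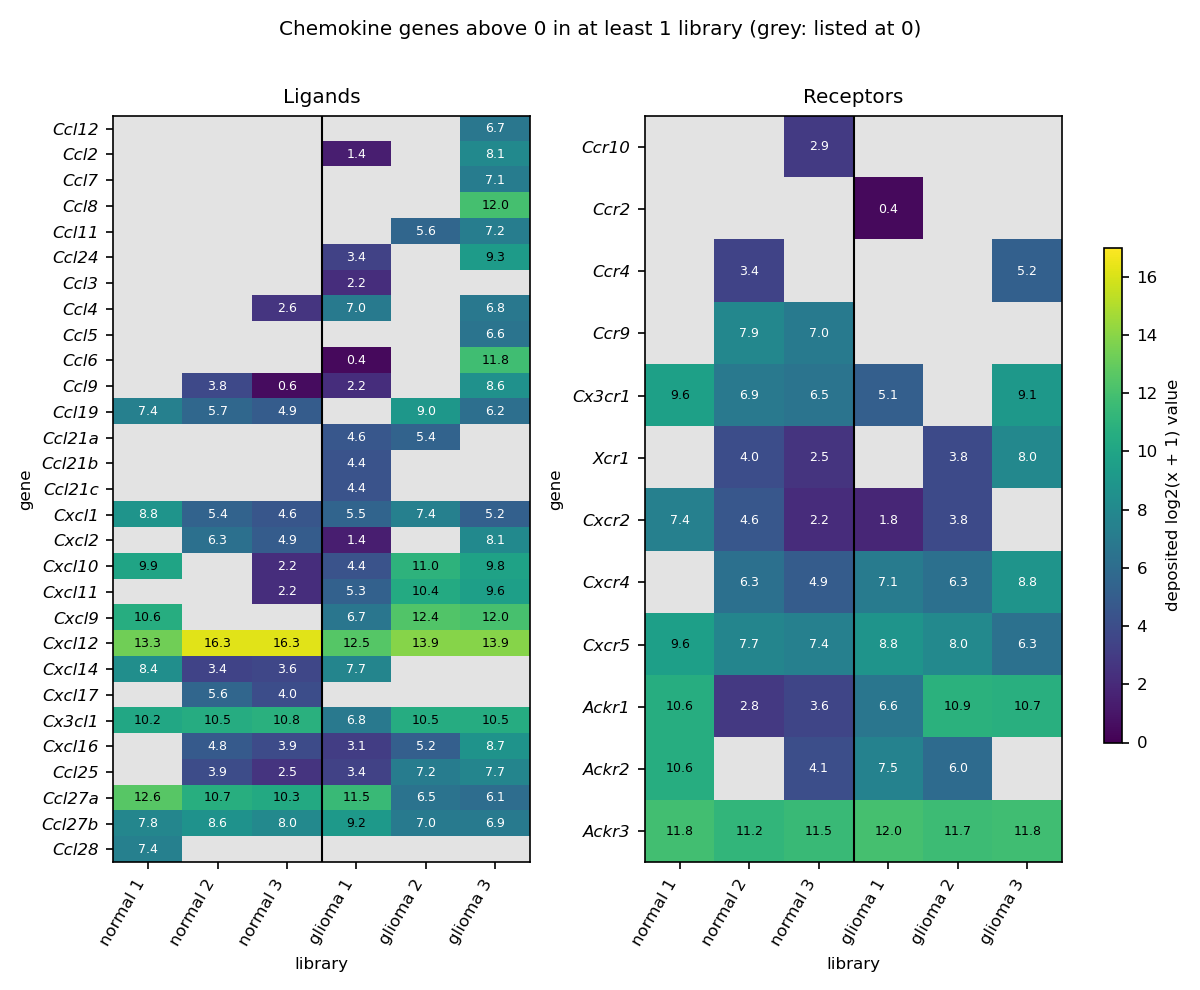
Deposited log2(x + 1) value (color and printed number) of each of the 41 chemokine genes above 0 in at least 1 library, ligands on the left and receptors on the right, with libraries in columns, a vertical line between the normal and glioma groups, and grey for genes listed at 0. Cxcl12 is the highest ligand in each library, Ackr3 lies between 11.21 and 11.96 everywhere, and Ccl8 is above 0 in glioma library 3 alone.

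No tested member passed the test between the groups. The test took genes that reached 1 after back-transformation in 3 or more libraries, which kept the same 23 members, and a gene seen only in 1 group could pass through that group alone. With limma over 11862 genes, 0 of the 23 members passed a Benjamini-Hochberg adjusted p of 0.05, as did 0% of all genes, and the smallest adjusted p of a member was 0.875. Before adjustment, 2 members had a p under 0.05, Cxcl11 above and Ccl27a below normal, against 4.29% of all genes. The groups did not overlap for 1 of 15 tested ligands, Cxcl11, and for 0 of 8 tested receptors, where this held for 13.3% of all genes (6.91% wholly above and 6.37% wholly below normal), so these shares are no higher than the background. The median difference, glioma minus normal, was -0.22 over the 15 ligands and -0.05 over the 8 receptors, beside 0.05 over all genes tested. The ligand median was above 0 in 5 of 6 fits that left out 1 library.

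Leaving out libraries changed the counts without overlap but not the 0 past the threshold. Without normal library 1, 4 ligands (Cxcl9, Cxcl10, Cxcl11 and Cxcl12) and 2 receptors (Ackr1 and Ackr3) did not overlap between the groups, where 35.4% of all genes did not. Without glioma library 1 these numbers were 7 ligands (Ccl25, Ccl27a, Ccl27b, Cxcl9, Cxcl11, Cxcl14 and Cxcl16) and 1 receptor (Ackr1), where 27.1% of all genes did not overlap. Without normal library 2 they were 2 ligands and 1 receptor (15% of all genes), and without glioma library 2 they were 2 and 2 (22.2%). Without normal library 3 or glioma library 3, 1 receptor joined Cxcl11 (Cxcr2 and Cx3cr1, in turn), where 16.2% and 22.4% of all genes did not overlap. When limma weighted each library by its agreement with the group, with weights from 0.11 for normal library 1 to 17.2 for normal library 3, 4 members passed at adjusted p from 0.014 to 0.0467, namely Cxcl9, Cxcl10 and Ackr1 above and Cxcl12 below normal, among 322 genes. Normal libraries 2 and 3, which carry the normal mean in that fit, are the most alike pair of all.

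**Figure D2:**
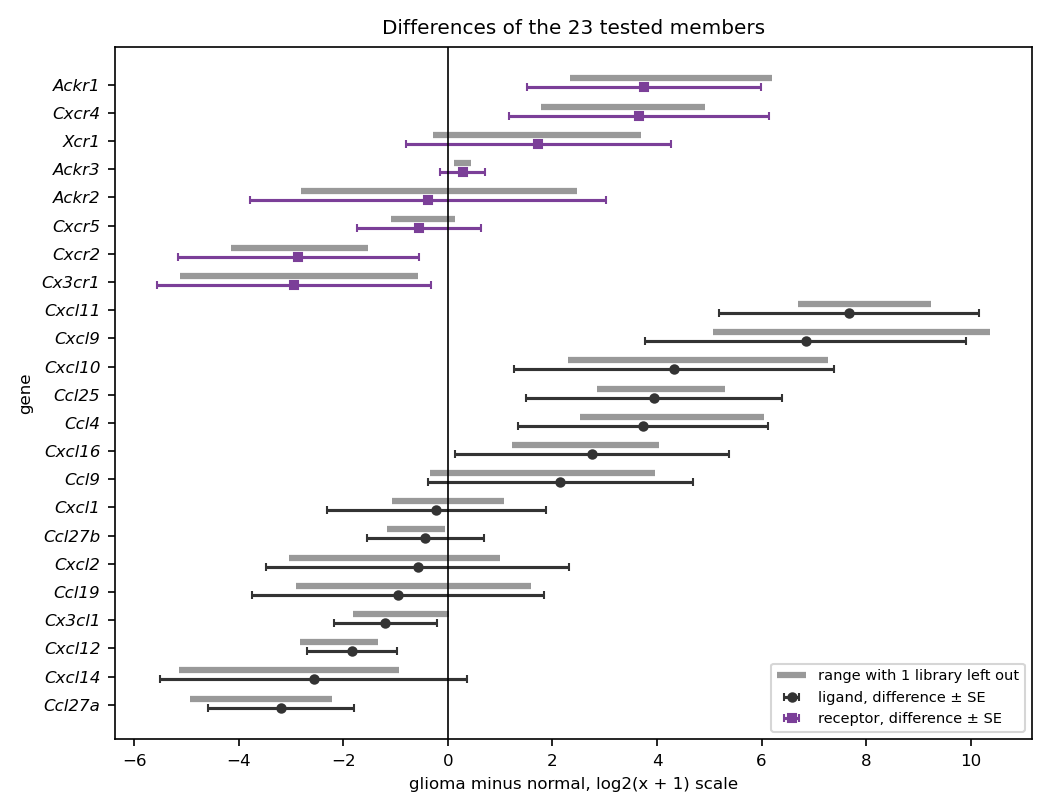
Difference between the glioma and normal means on the log2(x + 1) scale for the 23 tested members, with points and whiskers for the limma difference ± SE of ligands (black circles) and receptors (purple squares), and grey bars for the range when 1 of the 6 libraries is left out. The bars of Cxcl9, Cxcl10 and Cxcl11 stay above 0 and those of Cxcl12 and Ccl27a below 0, while values of 0 widen the whiskers of low genes.

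Cxcl12, the homeostatic ligand of the receptors Cxcr4 and Ackr3 (chromosome 6, 117168535 to 117181367), was the most abundant member in every library. Its log2 value was 13.29, 16.26 and 16.26 in normal libraries 1, 2 and 3, and 12.49, 13.91 and 13.91 in glioma libraries 1, 2 and 3. Normal libraries 2 and 3 lay above all glioma libraries, and normal library 1 lay between glioma libraries. In rank among all genes of its library, Cxcl12 was at rank 10 in both normal libraries 2 and 3, at 222 in normal library 1, and at 471, 113 and 112 in the glioma libraries. The difference of -1.83 (SE 0.87) did not pass (limma adjusted p = 0.875), and ranged from -2.82, without normal library 1, to -1.34, without normal library 2 or 3. With array weights it was -2.58 (limma adjusted p = 0.0278). The summed endothelial markers, which lean on Egfl7, were also lower in glioma, while 5 of the 15 markers had a difference above 0, as given above.

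With Cxcl12 as its largest member, the family's share of each library's summed back-transformed values was uneven. All 61 members together held 0.18%, 0.50% and 0.50% of the sum in normal libraries 1, 2 and 3, and 0.0875%, 0.19% and 0.23% in the glioma libraries. Cxcl12 alone made up 92.0% and 91.9% of the family's sum in normal libraries 2 and 3, 33.8% in normal library 1 and 38.7%, 47.7% and 38.6% in glioma libraries 1, 2 and 3. The ligands other than Cxcl12 held 0.0664%, 0.0222% and 0.0202% of the library sums in the normal group and 0.0248%, 0.0663% and 0.106% in the glioma group, where the groups overlap.

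**Figure D3:**
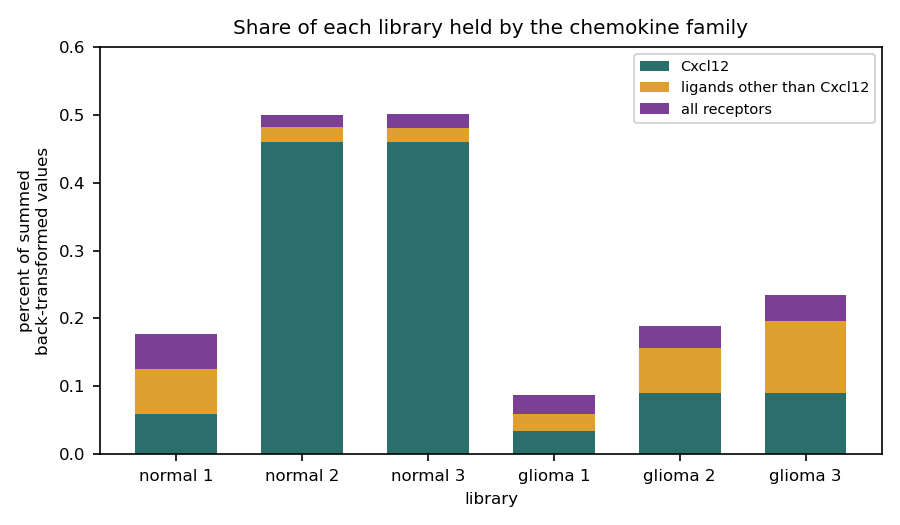
Percent of the summed back-transformed values of each library that belongs to Cxcl12 (teal), the other 38 ligands (yellow) and the 22 receptors (purple), stacked from 0, with 1 bar per library. Cxcl12 fills most of the bars of normal libraries 2 and 3, while the other 4 libraries hold smaller and more mixed shares.

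The receptors of Cxcl12 had unlike patterns. Ackr3, a scavenging receptor that shapes Cxcl12 gradients (chromosome 1, 90203980 to 90216751), was the most even member, at 11.84, 11.21 and 11.55 in the normal and 11.96, 11.68 and 11.79 in the glioma libraries. Its difference was 0.28 (SE 0.42, limma adjusted p = 0.899), the smallest SE among the tested members, and the groups overlapped through normal library 1. Cxcr4, the signalling receptor, known as a tip cell gene in sprouting vessels and also a receptor of most leukocytes (chromosome 1, 128588199 to 128592293), was listed at 0 in normal library 1, at 6.28 and 4.94 in normal libraries 2 and 3, and at 7.11, 6.26 and 8.82 in glioma. Only glioma library 2 lay within the normal range, and the difference of 3.65 (SE 2.48, limma adjusted p = 0.875) is widened by the 0. Cxcr4 thus lay below Ackr3 in each library on the log2 scale.

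The ligands of Cxcr3, Cxcl9, Cxcl10 and Cxcl11, are known as interferon-induced attractants of activated T cells. They are neighbours on chromosome 5, at 92321347 to 92328079, 92346638 to 92348889 and 92359544 to 92365485, and the annotation calls Cxcl11 a polymorphic pseudogene, since the C57BL/6 strain carries a frameshift in it. Cxcl9 was at 10.60 in normal library 1, listed at 0 in normal libraries 2 and 3, and at 6.70, 12.37 and 12.05 in the glioma libraries. Cxcl10 was at 9.93, 0 and 2.22 in the normal and 4.37, 10.98 and 9.79 in the glioma libraries, and overlaps an exon of Art3 on the other strand. Glioma libraries 2 and 3 and normal library 1 were thus high for both genes, glioma library 1 lay between, and normal libraries 2 and 3 were at or near 0. Cxcl11 was listed at 0 in normal libraries 1 and 2, at 2.22 in normal library 3, and at 5.25, 10.37 and 9.61 in glioma. Its exons overlap the processed pseudogene Gm2673 on the other strand over 1582 bases, and reads of the pair cannot be told apart without strand. It was the 1 member with all glioma libraries above all normal libraries (6.91% of all genes), and unlike Cxcl9 and Cxcl10 it was not seen in normal library 1, whose lowest value above 0 was 7.43.

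The differences were 6.84 (SE 3.06) for Cxcl9, 4.33 (SE 3.06) for Cxcl10 and 7.67 (SE 2.48) for Cxcl11, each widened by values of 0 and each at a limma adjusted p of 0.875. Without normal library 1 they were 10.37, 7.27 and 7.30, where Cxcl9 was listed at 0 in the remaining normal libraries. Without normal library 2 they were 5.07, 2.30 and 7.30, and with all values raised to a shared floor of 7.43 they were 2.13, 1.14 and 1.71, again with no call. With array weights Cxcl9 (11.29, limma adjusted p = 0.014) and Cxcl10 (7.78, limma adjusted p = 0.0467) passed, and Cxcl11 (7.55, limma adjusted p = 0.0539) did not. The receptor Cxcr3 was listed at 0 in all 6 libraries. Of 12 measured T and NK cell markers, 9 were at 0 in every library, Cd3e, Cd3g and Cd8a among them, and the other 3 had unlike patterns. Cd3d, a chain of the T cell receptor complex, was at 7.67, 4.88 and 3.25 in the normal and 0, 3.82 and 0 in the glioma libraries. Lck, a T cell kinase, was at 8.63 and 8.62 in glioma libraries 1 and 2 alone, and Il2rb, an interleukin receptor chain, at 8.06 in glioma library 3 alone. Their part in the Cxcr3 ligand values was not tested.

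The stretches before the start sites of Cxcl9 and Cxcl10 are shown because these adjacent genes were high and low in the same libraries. They span the 250 bases before each start (RefSeq, GRCm38.p6, minus strand), chr5:92328080-92328329 for Cxcl9 and chr5:92348890-92349139 for Cxcl10, in lower case with matches to any of 3 motifs in capitals.
Cxcl9: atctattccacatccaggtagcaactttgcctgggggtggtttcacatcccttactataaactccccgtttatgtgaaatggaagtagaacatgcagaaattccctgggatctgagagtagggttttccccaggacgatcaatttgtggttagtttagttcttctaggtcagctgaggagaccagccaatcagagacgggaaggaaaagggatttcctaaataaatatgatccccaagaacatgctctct
Cxcl10: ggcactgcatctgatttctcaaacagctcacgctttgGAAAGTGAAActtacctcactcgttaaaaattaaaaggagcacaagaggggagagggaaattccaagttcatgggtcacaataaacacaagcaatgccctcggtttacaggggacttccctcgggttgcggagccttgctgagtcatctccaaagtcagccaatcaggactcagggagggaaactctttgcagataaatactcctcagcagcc
The motifs were the interferon-stimulated response element (ISRE: GAAA, any pair of bases, then GAAA), the gamma-activated site (GAS: TTC, any 3 bases, then GAA) and an NF-kappaB site (GGGA, any base, then TTTCC), searched on both strands. In the same window, 2.98%, 7.02% and 0.356% of 32851 promoters held them. The Cxcl10 window held 1 match to the ISRE, GAAAGTGAAA, 213 to 204 bases before the start, and the Cxcl9 window held none of the 3. A match describes letters and not binding. The patterns are strict, and stretches of the Cxcl9 and Cxcl10 windows that only come near the NF-kappaB letters are not marked. Lack of a match therefore does not show that a site is absent.

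**Figure D4:**
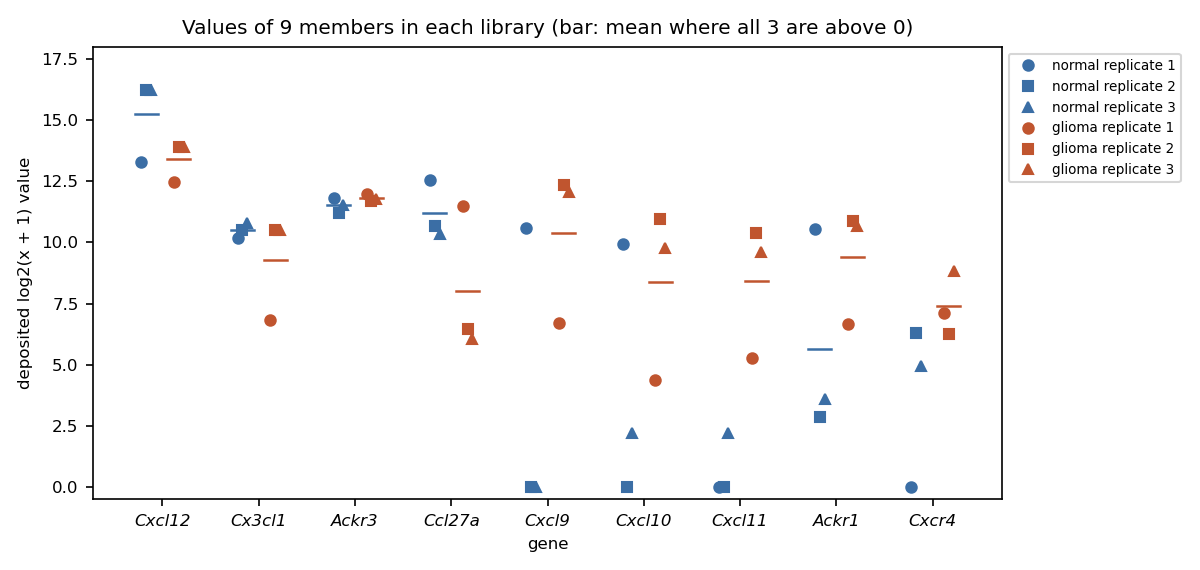
Deposited log2(x + 1) value of 9 chemokine genes in each library, with blue for normal and orange for glioma, a circle, square or triangle for replicates 1, 2 and 3, and a bar for the mean where all 3 values are above 0. For Cxcl9, Cxcl10 and Ackr1 normal library 1 sits with the glioma libraries, and for Ccl27a glioma library 1 sits with the normal libraries.

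A list of inducing signals held 21 genes, not all of them known to induce these ligands. Of these, 20 or 21 were above 0 in each library but normal library 1, where 15 were. Irf1, an interferon-induced transcription factor, was at 13.07, 12.50 and 12.58 in the normal and 12.60, 13.73 and 12.97 in the glioma libraries. Stat2, a transcription factor of type I interferon signalling, was listed at 0, then at 7.59 and 8.47 in the normal group and at 9.38, 10.73 and 9.48 in glioma. Ifngr1, a chain of the interferon gamma receptor, was at 11.20, 10.99 and 10.81 against 10.71, 9.39 and 9.44. Stat2 and Ifngr1 were chosen after their values were seen. Nfkbia, an inhibitor of NF-kappaB, and Stat3 were the others among the 3 highest of the list. Of its 21 tested genes, 0 passed in either direction, with a median difference of 0.15. At an unadjusted limma p under 0.05, 0 were above and 1 below normal, against 4.29% of all genes in either direction. Wholly above normal lay 1 gene and wholly below 2, where 13.3% of all genes did not overlap.

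The membrane-bound ligands are anchored to the cell that makes them and can be shed by the proteases Adam10 and Adam17. Cx3cl1, or fractalkine, which endothelium and neurons make, was at 10.18, 10.51 and 10.79 in normal EC and 6.85, 10.53 and 10.51 in glioma EC. Glioma library 1 stood apart as the 1 low value, and without it the difference was 0.03 in place of -1.20 (SE 0.99, limma adjusted p = 0.875). Its receptor Cx3cr1, a microglial and monocyte gene, was at 9.65, 6.88 and 6.51 in normal libraries and at 5.13, 0 and 9.08 in glioma (difference -2.94, SE 2.63, limma adjusted p = 0.875), with overlapping groups. Cxcl16, a scavenger receptor and ligand of Cxcr6, was at 0, 4.83 and 3.91 in normal EC and 3.12, 5.16 and 8.74 in glioma EC, and shares an exon stretch with Zmynd15 on the other strand. Cxcr6 was listed at 0 everywhere. Adam17 was at 12.73, 14.07 and 14.01 against 12.69, 12.69 and 13.05, and Adam10 at 10.40, 10.56 and 10.64 against 9.55, 11.50 and 11.19.

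The inflammatory CC ligands were concentrated in glioma library 3. These 9 genes attract monocytes, macrophages and other leukocytes, Ccl2, Ccl7, Ccl8 and Ccl12 mainly through Ccr2, beside Ccl3, Ccl4, Ccl5, Ccl6 and Ccl9, and 8 of them were above 0 in that library. In the other libraries 0, 1 and 2 were above 0 in normal libraries 1, 2 and 3, and 5 and 0 in glioma libraries 1 and 2. Ccl8 was at 11.96 in glioma library 3 and listed at 0 in the other 5 libraries, and Ccl6 was at 11.78 there, at 0.42 in glioma library 1, the lowest value above 0 of that library, and otherwise at 0. They ranked 735 and 853 among all genes of glioma library 3. Ccl2, the main monocyte attractant, was at 8.09 in glioma library 3 and 1.42 in glioma library 1, and Ccl7, Ccl12 and Ccl5 were seen in glioma library 3 alone, at 7.11, 6.73 and 6.56.

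Of this group only Ccl4 and Ccl9 passed the filter. Ccl4 was at 2.62 in normal library 3, 7.03 in glioma library 1 and 6.80 in glioma library 3, and at 0 elsewhere (difference 3.73, SE 2.40, limma adjusted p = 0.875). Ccl9 was at 0, 3.77 and 0.58 in normal EC and 2.22, 0 and 8.60 in glioma EC, and its difference turned from 2.15 to -0.34 without glioma library 3. Ccl3 was seen once, at 2.22 in glioma library 1. The eosinophil attractants Ccl24 and Ccl11 had a like pattern, with Ccl24 at 3.37 and 9.35 in glioma libraries 1 and 3 and Ccl11 at 5.60 and 7.22 in glioma libraries 2 and 3, both at 0 in all normal libraries.

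Myeloid markers were also highest in glioma library 3. Of 18 measured microglia and macrophage markers, 14 were above 0 there and 13 had their highest value there, and their summed back-transformed level was 14730, against 1424 and 961 in glioma libraries 1 and 2 and 193.5 to 3255 in the normal libraries. C1qa, a complement gene of microglia and macrophages, was at 11.69 in glioma library 3, at 5.25 and 6.78 in glioma libraries 1 and 2, and at 9.79, 3.42 and 0.22 in the normal libraries, while Adgre1 was listed at 0 in all 6. Normal library 1, the next highest in summed myeloid level, had 0 of the 9 inflammatory CC ligands above 0, at a lowest visible value of 7.43. Among receptors of these ligands, Ccr1 and Ccr3 were listed at 0 in every library and Ccr2 was at 0.42 in glioma library 1 alone. The part of myeloid cells in the CC ligand values was not tested.

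Cxcl1 and Cxcl2, which attract neutrophils through Cxcr2, did not separate the groups. Cxcl1 was above 0 in all libraries, at 8.82, 5.38 and 4.57 in normal EC and 5.51, 7.40 and 5.22 in glioma, where 5.22 is the lowest value above 0 of glioma library 3. Cxcl2 was at 0, 6.28 and 4.94 in normal EC and 1.42, 0 and 8.07 in glioma EC. The differences were -0.22 (SE 2.09) and -0.58 (SE 2.90), and Cxcl3, Cxcl5 and Cxcl15 were listed at 0 in all 6 libraries. Cxcr2 was at 7.43, 4.62 and 2.17 in normal EC and 1.81, 3.82 and 0 in glioma EC, where 7.43 and 3.82 are the lowest values above 0 of normal library 1 and glioma library 2, and Cxcr1 was at 0 everywhere. Granulocyte markers were highest in glioma library 1, with 6 of 7 above 0 and a summed level of 9724 against 0 to 76.3 in the other libraries, and that library had Cxcl1 at 5.51. The part of granulocytes in these values was not tested.

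The stretches before Cxcl1, Cxcl2 and Cxcl3, neighbours on chromosome 5, are shown because the same NF-kappaB letters precede a member seen in all libraries, a member seen in some and a member at 0. They span the 120 bases before each start on the plus strand (RefSeq, GRCm38.p6), chr5:90891125-90891244, chr5:90903779-90903898 and chr5:90785981-90786100, with the motif in capitals.
Cxcl1: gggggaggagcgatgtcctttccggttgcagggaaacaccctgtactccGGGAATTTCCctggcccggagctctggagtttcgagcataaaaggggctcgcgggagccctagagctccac
Cxcl2: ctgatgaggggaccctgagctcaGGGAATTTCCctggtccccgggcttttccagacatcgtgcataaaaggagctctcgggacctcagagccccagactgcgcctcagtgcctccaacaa
Cxcl3: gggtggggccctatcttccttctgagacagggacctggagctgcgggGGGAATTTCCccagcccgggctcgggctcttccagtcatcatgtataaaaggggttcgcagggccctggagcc
GGGAATTTCC lies 71 to 62 bases before the start of Cxcl1, 97 to 88 before Cxcl2 and 73 to 64 before Cxcl3. Over the 52 promoter windows of 45 members with an entry, 4 held the NF-kappaB motif on either strand, the fourth before Ccr3, which was at 0 in all libraries, against 0.356% of all promoters. For the ISRE and the GAS the counts were 3 and 3 of 52.

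Ligands of skin and lymphoid homing also had values in brain endothelium. Ccl27a, a ligand of Ccr10 known from skin (chromosome 4, 41769467 to 41774247), was at 12.57, 10.69 and 10.33 in normal EC and 11.49, 6.48 and 6.06 in glioma EC. Glioma libraries 2 and 3 lay below all normal libraries and glioma library 1 among them. The difference was -3.19 (SE 1.40, limma adjusted p = 0.875), and it ranged from -4.93, without glioma library 1, to -2.21, without glioma library 3. The locus has near-identical copies and an exon of Il11ra1 overlaps the end of Ccl27a by 8 bases on the other strand, so how reads were shared among them is not known. The copy Ccl27b was at 7.80, 8.64 and 7.98 against 9.17, 7.0 and 6.95 (difference -0.44, SE 1.12). Ccr10 itself was at 2.91 in normal library 3 and otherwise at 0, and Ccl28, its other ligand, was at 7.43 in normal library 1 alone, that library's lowest value.

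Ccl19, which guides lymphocytes and dendritic cells through Ccr7, was at 7.43, 5.66 and 4.91 in normal EC and 0, 8.98 and 6.18 in glioma EC, with a difference of -0.95 (SE 2.79) that became 1.58 without glioma library 1. Its partner Ccl21 exists as near-identical copies, of which Ccl21a was at 4.60 and 5.39 in glioma libraries 1 and 2, and Ccl21b and Ccl21c were both at 4.37 in glioma library 1. Ccr7 was listed at 0 everywhere. Ccl25, which draws thymocytes and intestinal lymphocytes, was at 0, 3.92 and 2.54 in normal EC and 3.37, 7.17 and 7.74 in glioma EC, a difference of 3.94 (SE 2.45, limma adjusted p = 0.875), in which only glioma library 1 overlapped the normal range. Its annotated exons overlap Elavl1 on the other strand. Its receptor Ccr9 was at 7.89 and 6.99 in normal libraries 2 and 3 and at 0 in the other libraries, and its exons overlap other genes by up to 1876 bases on the other strand and 269 on the same strand. Cxcl14, a ligand of epithelia and stroma, was at 8.40, 3.42 and 3.60 against 7.71, 0 and 0 (difference -2.57, SE 2.93), and Cxcl17 at 5.63 and 4.0 in normal libraries 2 and 3 alone. Ccl1, Ccl17, Ccl20, Ccl22, Ccl26, Cxcl13 and Xcl1 were listed at 0 in all libraries.

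The remaining receptors overlapped between the groups. Ackr1, which carries chemokines across venules and is known as a marker of venous endothelium (chromosome 1, 173331886 to 173333750), was at 10.56 in normal library 1, 2.84 and 3.58 in normal libraries 2 and 3, and 6.65, 10.87 and 10.69 in glioma, and 2.84 is the lowest value above 0 of normal library 2. As for Cxcl9, glioma libraries 2 and 3 and normal library 1 were high, a likeness noticed after the values were seen. The difference was 3.74 (SE 2.24, limma adjusted p = 0.875). It was 6.19 without normal library 1, 2.33 without normal library 2, 2.70 without normal library 3 and 1.19 with the shared floor. With array weights it was 6.63 (limma adjusted p = 0.0289), and an exon of Cadm3 overlaps the gene on the same strand. Ackr2, a scavenger of inflammatory CC ligands best known from lymphatic vessels, was at 10.58, 0 and 4.06 against 7.53, 5.97 and 0 (difference -0.38, SE 3.40). Ackr4 was at 0 in all 6.

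Cxcr5, the B cell receptor of Cxcl13, was at 9.63, 7.73 and 7.38 in normal EC and 8.77, 7.98 and 6.32 in glioma EC, although Cxcl13 and the B cell markers Cd79a, Cd79b and Ms4a1 were listed at 0 in all 6. The annotated exons of Cxcr5 overlap those of Bcl9l on the other strand by up to 110 bases, and how such reads were assigned is not known. Its difference was -0.55 (SE 1.19). Xcr1, a receptor of cross-presenting dendritic cells, was at 0, 4.04 and 2.54 in normal EC and 0, 3.82 and 7.95 in glioma EC, although its ligand Xcl1 was at 0. Ccr4 was at 3.42 in normal library 2 and at 5.22, the lowest value above 0, in glioma library 3, and Ccr6 and Ccr8 were at 0 in all libraries.

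Genes that work with chemokines were described by lists of their roles. Of 17 tested genes that couple the receptors to G proteins and arrestins, 0 passed in either direction with limma, 1 was above normal at an unadjusted p under 0.05 and 0 below, and the median difference was -0.13. The highest were the G protein subunits Gnb1 (14.21 ± 0.25 in normal EC and 14.21 ± 0.19 in glioma, SD, n = 3 each), Gnai2 (13.14 ± 0.29 and 13.01 ± 0.76) and Gnb2 (12.58 ± 0.42 and 12.26 ± 0.62). Arrb1, an arrestin that ends receptor signalling, was at 9.02, 8.91 and 9.04 against 10.04, 10.90 and 10.07 and was the gene with the unadjusted call (difference 1.35, SE 0.58, adjusted p = 0.875), a gene chosen after its values were seen. The groups did not overlap for 2 of the 17, Arrb1 and Rac2, both above normal, where 13.3% of all genes did not, and Rac2 too was named after its values were seen.

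Of 14 tested genes for presentation and cleavage of ligands, 0 passed in either direction, 0 had an unadjusted p under 0.05, and the median difference was -0.13. Beside Adam17 and Adam10, the highest was Sdc3, a heparan sulfate proteoglycan (10.97 ± 0.45 and 10.86 ± 0.84). Ext1, which builds heparan sulfate, lay wholly above normal at 7.54, 6.13 and 6.46 against 8.38, 9.26 and 8.43. Dpp4, a protease that trims and inactivates Cxcl12 and Cxcl10, lay wholly below at 8.23, 8.61 and 8.69 against 0, 0 and 7.69. Both were chosen after their values were seen, as the 1 gene above and the 1 below among the 14, where 13.3% of all genes did not overlap.

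Of 7 tested chemokine-related genes outside the naming rule, 0 passed in either direction, and the median difference was 1.23. Mif, a cytokine that also binds Cxcr4, was at 8.99 ± 1.11 and 10.21 ± 1.38 (SD, n = 3 each). Ccrl2, a non-signalling receptor that presents chemerin, was at 0, 9.69 and 9.76 in normal EC and 5.38, 9.91 and 10.17 in glioma EC. Cmklr1, the signalling chemerin receptor, was at 0, 6.02 and 5.57 in normal EC and 8.42, 8.06 and 8.23 in glioma EC. Of the 7 genes, 1 (Cmklr1) lay wholly above and 1 (Ppbp) wholly below normal, where 13.3% of all genes did not overlap. Ppbp, the platelet chemokine Cxcl7 under another symbol, was at 9.51, 5.86 and 5.10 in normal EC and listed at 0 in all glioma libraries (limma adjusted p = 0.875), and Pf4, the platelet chemokine Cxcl4, was at 8.96 in normal library 1 and 9.06 in glioma library 1 alone. Of 6 platelet markers, which include Ppbp and Pf4, 5, 4 and 4 were above 0 in the normal and 4, 2 and 0 in the glioma libraries, with summed levels of 328.5 to 2897 and 0 to 3462. The part of platelets in these values was not tested.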

How the data were processed

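RNA from sorted endothelial cells was made into QuantSeq 3′ end libraries with a Lexogen kit, per the labels' protocols. The submitters' processing notes list Bowtie2, edgeR and mm10 and give neither versions nor roles. The counting step, its use of strand and the annotation were not given in the sources used here. The deposited log2 values were read from the numbers as log2(x + 1) of levels quantile-normalized across the 6 libraries: all files share their highest value, 20.85, and 100.0% of back-transformed values above 0 lie within 0.02 of a whole multiple of 1 divided by 6. Read depth is therefore unknown, and no counting interval is given. Genes that reached 1 after back-transformation in 3 or more libraries entered a limma 3.58.1 fit under R 4.3.3 (mean trend, group as the only term, 4 residual degrees of freedom, Benjamini-Hochberg over 11862 genes), and the code was tested on simulated data. All 61 members fell into role groups, and members above 0 in at least 3 libraries are named with every value. From each related list, genes past the threshold and the 3 highest are named. The members and lists were chosen with earlier results of these data known. Positions come from GENCODE M21 on GRCm38, the build of mm10, for 60 members, and promoters from RefSeq for 45. Alternatives were a replicate block, other filters, a shared floor, a pseudocount of 16, median centring, array weights and leaving out libraries. Marker lists covered endothelium, B cells, T and NK cells, platelets, granulocytes, pericytes, fibroblasts, astrocytes, neurons, oligodendrocytes, and microglia with macrophages. Values of a few genes are not reported here.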

Additional observations from a re-analysis of the deposited data

How the results depend on the processing

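No member passed the limma test over all genes under the replicate block, the filters, the shared floor, the pseudocount of 16, median centring or without any 1 library, and the number of genes past the threshold was 0 under each of these. Array weights gave 322 genes and 4 members past the threshold, and the estimation of the weights stopped before it converged. Whether the replicate numbers shared by the groups pair the libraries cannot be settled from these values. The deviations of equal numbers correlated at 0.19, 0.15 and 0.06, and those of unequal numbers at -0.19 to 0.19, the highest for normal replicate 3 with glioma replicate 2. The fit with the replicate block gave 0 genes and 0 members past the threshold. It gave 610 genes at an unadjusted limma p under 0.05, against 509 without the block. Ligands without overlap numbered 0 under the strict filter (13.7% of all genes) and under the shared floor (9.19%). With 1 library left out they numbered 1 to 7 and receptors 1 to 2, where 15% to 35.4% of all genes did not overlap. With normal 2 and 3 against glioma 2 and 3, chosen after seeing the data, they numbered 10 and 2 (55.5% of all genes), and 0 genes passed. The median ligand difference was 2.19 without a filter, -1.20 with the strict filter and 2.09 for that smaller set, and -0.057 to 1.58 with 1 library left out. Median centring moved the median of all genes from 0.05 to 0.13. Of 23 members, 14 did not reverse in any setting or with any 1 library left out, and of these Ccl4 had a difference of 0 with the shared floor. Directions turned for Ccl19 (0.52 with the shared floor, 0.13 with the pseudocount, 1.89 with array weights, 2.29 in the smaller set), Cxcl1 (1.95 with array weights, 1.33 in the smaller set), Cxcl2 (0.22 with the shared floor, 0.082 with the pseudocount), Ackr2 (1.83 and 0.96), Cxcr2 (0.16) and Cxcr5 (0.37 with array weights). With 1 library left out the differences ran from -2.91 to 1.58 for Ccl19, -0.34 to 3.96 for Ccl9, -1.81 to 0.029 for Cx3cl1, -1.06 to 1.06 for Cxcl1, -3.03 to 1.00 for Cxcl2, -2.82 to 2.47 for Ackr2, -1.09 to 0.14 for Cxcr5 and -0.28 to 3.69 for Xcr1. The cause was not tested. Unknown read depth and the gap above 0 limit every low member.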

Other observations

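Markers of other brain cell types were also above 0 in these libraries. Their part in the chemokine values was not tested. Of 12 pericyte and smooth muscle markers, 10, 12 and 12 were above 0 in the normal and 9, 11 and 10 in the glioma libraries, with Rgs5 at 11.36 ± 1.97 and 11.56 ± 1.33, Abcc9 at 9.86 ± 0.87 and 11.55 ± 1.39 and Acta2 at 10.45 ± 0.14 and 10.43 ± 2.05 (SD, n = 3 each). All 6 fibroblast markers were above 0 in glioma replicate 1, where Col1a2 was at 10.93, Col3a1 at 9.76 and Col1a1 at 8.36, and 0 in glioma replicate 3. The astrocyte genes Slc1a2 (12.47 ± 0.68 and 12.31 ± 1.77) and Gja1 (10.07 ± 0.21 and 11.07 ± 0.16) were above 0 in all libraries, with Slc1a3 at 9.72, 8.20 and 8.29 against 7.90, 0 and 9.50. Of the other astrocyte genes, Aqp4 was at 8.63 and 7.88 and Gfap at 2.84 and 2.17 in normal replicates 2 and 3 alone, and Aldh1l1 at 5.60 in glioma replicate 1 alone. Among neuronal genes, Map2 was at 9.15, 9.86 and 9.50 against 10.67, 0 and 10.07, and Stmn2 and Rbfox3 were likewise highest in glioma replicate 1 (10.69 and 8.57). The oligodendrocyte gene Mbp was at 10.96 and 10.94 in normal replicates 2 and 3, at 3.12 and 3.82 in glioma replicates 1 and 2, and listed at 0 in the other libraries.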
